A study of Mus musculus with 24 samples.

Results

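The clustered protocadherins are homophilic adhesion molecules of neurons and glia, encoded by the Pcdha, Pcdhb and Pcdhg gene clusters. Every gene whose symbol began with Pcdha, Pcdhb or Pcdhg and whose mean over the 24 libraries was at least 0.5 TPM (a level per gene length and relative to the library's total) was taken. This gave 57 genes of the 36333 listed: 14 Pcdha, 21 Pcdhb and 22 Pcdhg genes. Of the 58 family rows, 1 gene fell below the minimum, Pcdhb1 with a mean of 0.157 TPM, and the lowest gene above it was Pcdha8 with 0.652 TPM. None of the 57 passed through a single group, since every group mean was at least 0.5 TPM, and no library was at 0 for any member.

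The data were 24 RNA libraries of male mice, 1 library per mouse, taken 5 days after controlled cortical impact (CCI, a focal traumatic brain injury, TBI) or sham surgery. The labels give the strain as C57BL6N and the age as 12 to 16 weeks, whereas the methods name the C57BL/6JRj substrain and a narrower age range. Mice with TBI received vehicle, the CSF1R inhibitor PLX3397 in chow (290 mg/kg of food), the IL1R1 antagonist Anakinra by subcutaneous injection (100 mg/kg), or both drugs, with 5 mice in each group, and 4 sham mice received vehicle. Sham mice had anesthesia and a skin incision without craniotomy, so that injury and craniotomy cannot be told apart. The labels name the tissue cortex, whereas the methods describe lesional and perilesional tissue that also spans striatum, hippocampus and thalamus, and the 8 striatal marker genes examined summed to 1323 to 2179 TPM over all libraries. The identifiers of the vehicle mice alone carry the letter B, so that anything this letter marks cannot be told apart from the vehicle group.

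In each of the Pcdha and Pcdhg clusters, every variable first exon has its own promoter and is spliced to constant exons shared by the cluster, whereas Pcdhb genes are single-exon genes without a constant part. Neurons choose a few alternate isoforms by promoter choice, which depends on DNA methylation and on CTCF and cohesin looping, and express the C-type isoforms more broadly. The resulting surface identity serves self-avoidance of dendrites and axons, and gamma isoforms also act in dendrite growth and neuronal survival.

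All members lie on the plus strand of mouse chromosome 18 (RefSeq, GRCm38.p6). The Pcdha genes span 36930285 to 37188897, the Pcdhb genes 37294840 to 37521419 and the Pcdhg genes 37661775 to 37841873. A median of 53.5% of the exonic bases of a Pcdha gene (13 genes with exons in the annotation) and 44.7% of those of a Pcdhg gene were shared with another family member, against 0% for Pcdhb. How reads in these shared exons were divided among isoforms is not given in the sources used here, so that levels of single Pcdha and Pcdhg isoforms, and differences between isoforms, are uncertain. Antisense genes overlap 28.4% of the exonic bases of Pcdhgc3, 55.2% of Pcdhga10, 29.0% of Pcdhga11 and 63.5% of Pcdhb12, and counting by strand is not stated. Pcdhgb8 is annotated as a transcribed pseudogene.

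The libraries listed 22160 to 23249 genes above 0 TPM, and the number of reads behind each is unknown. Marker genes differed widely between sham and injured tissue. In vehicle mice 19 of 20 neuronal markers fell and none rose, and 11 of 12 astrocyte markers and all 12 microglial markers rose (limma, adjusted p under 0.05). In bulk tissue, fewer cells of a type and less RNA per cell cannot be told apart.

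The 3 members with the highest levels per gene length were C-type isoforms. Over the 24 libraries the highest means were those of Pcdhgc5, with 128 TPM, and Pcdhgc3, with 119 TPM, followed by Pcdhac2 with 38.2 TPM. The highest alternate isoform of Pcdhg was Pcdhga11 with 29.8 TPM and that of Pcdha was Pcdha12 with 12.0 TPM. The highest Pcdhb gene was Pcdhb17 with 14.3 TPM. Summed, the alternate isoforms of Pcdha exceeded its C-type isoforms (70.8 ± 4.79 against 57.4 ± 2.11 TPM in sham mice, SD, n = 4). Pcdhac2 made up 40.3% of the Pcdha sum in sham mice and 39.0% to 40.5% in the injured groups.

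Of the 3 clusters, Pcdha was the one whose summed level stood below sham in every injured library. The Pcdha sum was 123, 127, 130.2 and 132 TPM in sham mice, and 76.4, 79.0, 83.9, 86.3 and 95.3 TPM in vehicle mice. It was 86.9, 88.6, 90.8, 93.2 and 102 TPM with PLX3397, 75.1, 76.4, 86.0, 89.6 and 90.2 TPM with Anakinra and 91.2, 94.0, 96.6, 96.9 and 105 TPM with both drugs. Relative to sham, the mean differed by -34.3% in vehicle, -28.0% with PLX3397, -34.9% with Anakinra and -24.6% with both drugs, and no injured library reached the lowest sham value. The combination also stood above Anakinra alone without overlap, by 15.9%, whereas it overlapped with vehicle. These sums are given as descriptions without a test.

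The Pcdhb sum was 125, 142, 142 and 142 TPM in sham mice and 108, 112, 114, 122 and 127 TPM in vehicle mice. It was 117, 118, 119, 126 and 134 TPM with PLX3397, 109, 109, 116, 117 and 121 TPM with Anakinra and 121, 122, 124, 128 and 134 TPM with both drugs. Sham mouse J08 lay apart from the other sham mice, and only the Anakinra group stayed below it in every library. The means differed from sham by -15.4%, -10.8%, -16.9% and -8.67% in the vehicle, PLX3397, Anakinra and combination groups. The ratio of the Pcdha sum to the Pcdhb sum was 0.932 ± 0.0365 (SD, n = 4) in sham mice and 0.722 ± 0.0202 (SD, n = 5) in vehicle mice, and the sham group did not overlap with any injured group.

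The Pcdhg sum overlapped between sham and every injured group. It was 531 ± 18.8 TPM (SD, n = 4) in sham mice, 550.5 ± 23.6 in vehicle, 544 ± 38.6 with PLX3397, 519 ± 33.8 with Anakinra and 562 ± 43.9 with both drugs (n = 5 each). In vehicle mice 1 of its 22 isoforms rose and 5 fell, beside 26.6% and 27.7% of all genes tested. Without Pcdhgc3, a split chosen after the values were seen, its mean differed from sham by -8.89% in vehicle mice, -6.89% with PLX3397, -12.4% with Anakinra and -3.34% with both drugs.

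**Figure D1:**
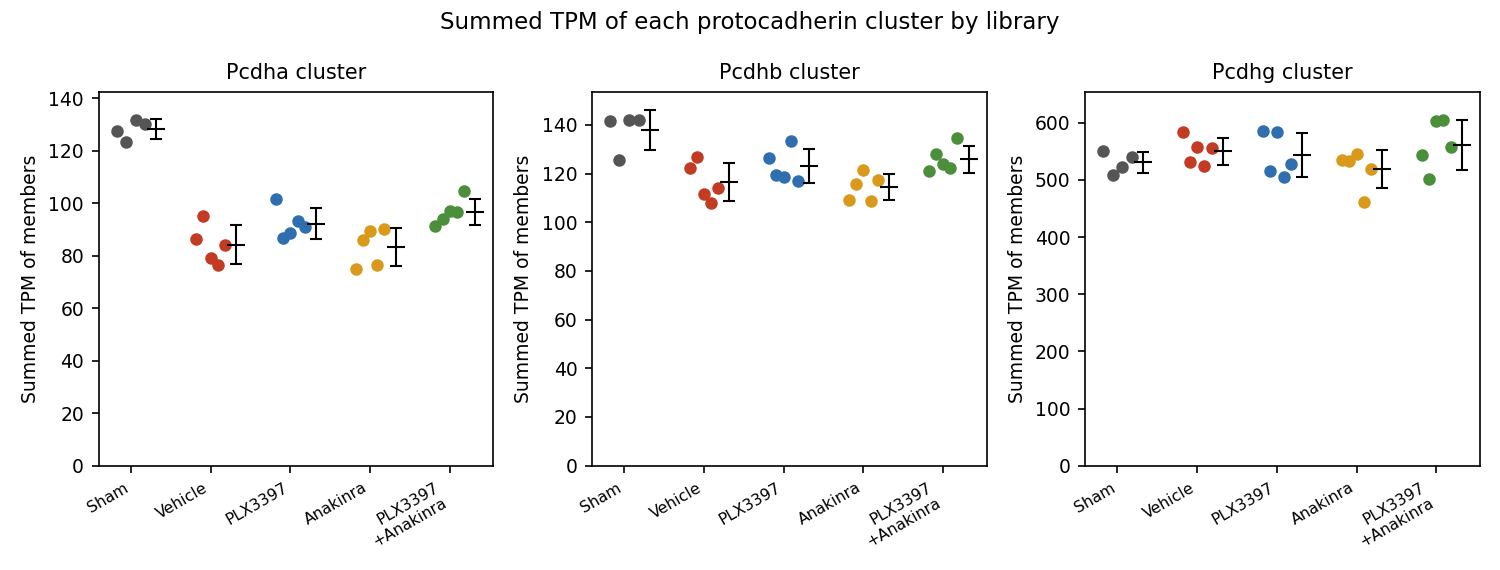
Summed TPM of the members of each cluster, with 1 point per library and, beside the points, the mean with its SD, for 4 sham mice and 5 mice in each injured group. All injured libraries lie below the lowest sham value of 123 TPM in the Pcdha panel, whereas the groups overlap in the Pcdhg panel.

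Among single genes, 21 of the 57 members fell and 1 rose in vehicle mice relative to sham (limma on log2(TPM + 1), adjusted p under 0.05). The share called lower was 27.7% and called higher 26.6% over all 17267 genes tested. By cluster, 10 of 14 Pcdha, 6 of 21 Pcdhb and 5 of 22 Pcdhg genes fell. The median log2 fold change was -0.48 for Pcdha, -0.19 for Pcdhb and -0.06 for Pcdhg, and -0.01 over all genes tested. The values of 16 members lay below sham without overlap, against 21% of all genes tested. No test of the difference between clusters was run, and members of 1 cluster share reads and regulatory elements.

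With PLX3397, 14 members were lower and 2 higher than sham, where 22.5% and 22.7% of all genes tested were called in these directions. With Anakinra 30 were lower and 1 higher (29.2% and 25.1%), and with both drugs 8 were lower and 1 higher (18.1% and 20.7%). Pcdha genes called lower numbered 7, 12 and 5 of 14 in these comparisons, Pcdhb genes 5, 10 and 3 of 21, and Pcdhg genes 2, 8 and 0 of 22. All 4 comparisons share the sham mice. Without sham mouse J07 the count for PLX3397, in both directions together, was 10 of 57 instead of 16. With all mice, 45.2% of all genes tested were called in this comparison. The share without J07 is not given, so whether the members lost more calls than other genes cannot be read from this. Leaving out this mouse also gave the lowest such counts for vehicle (18), Anakinra (21) and the combination (8) versus sham. At an unadjusted p under 0.05, 16 members differed between the combination and sham, against 46.7% of all genes tested. All 14 Pcdha estimates were below 0 in all 4 comparisons, called or not. Of all 17267 genes tested, 8925 (vehicle), 9006 (PLX3397), 9484 (Anakinra) and 8797 (combination) had estimates below 0. With shared sham mice and shared exons, the Pcdha estimates are not independent of each other.

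**Figure D2:**
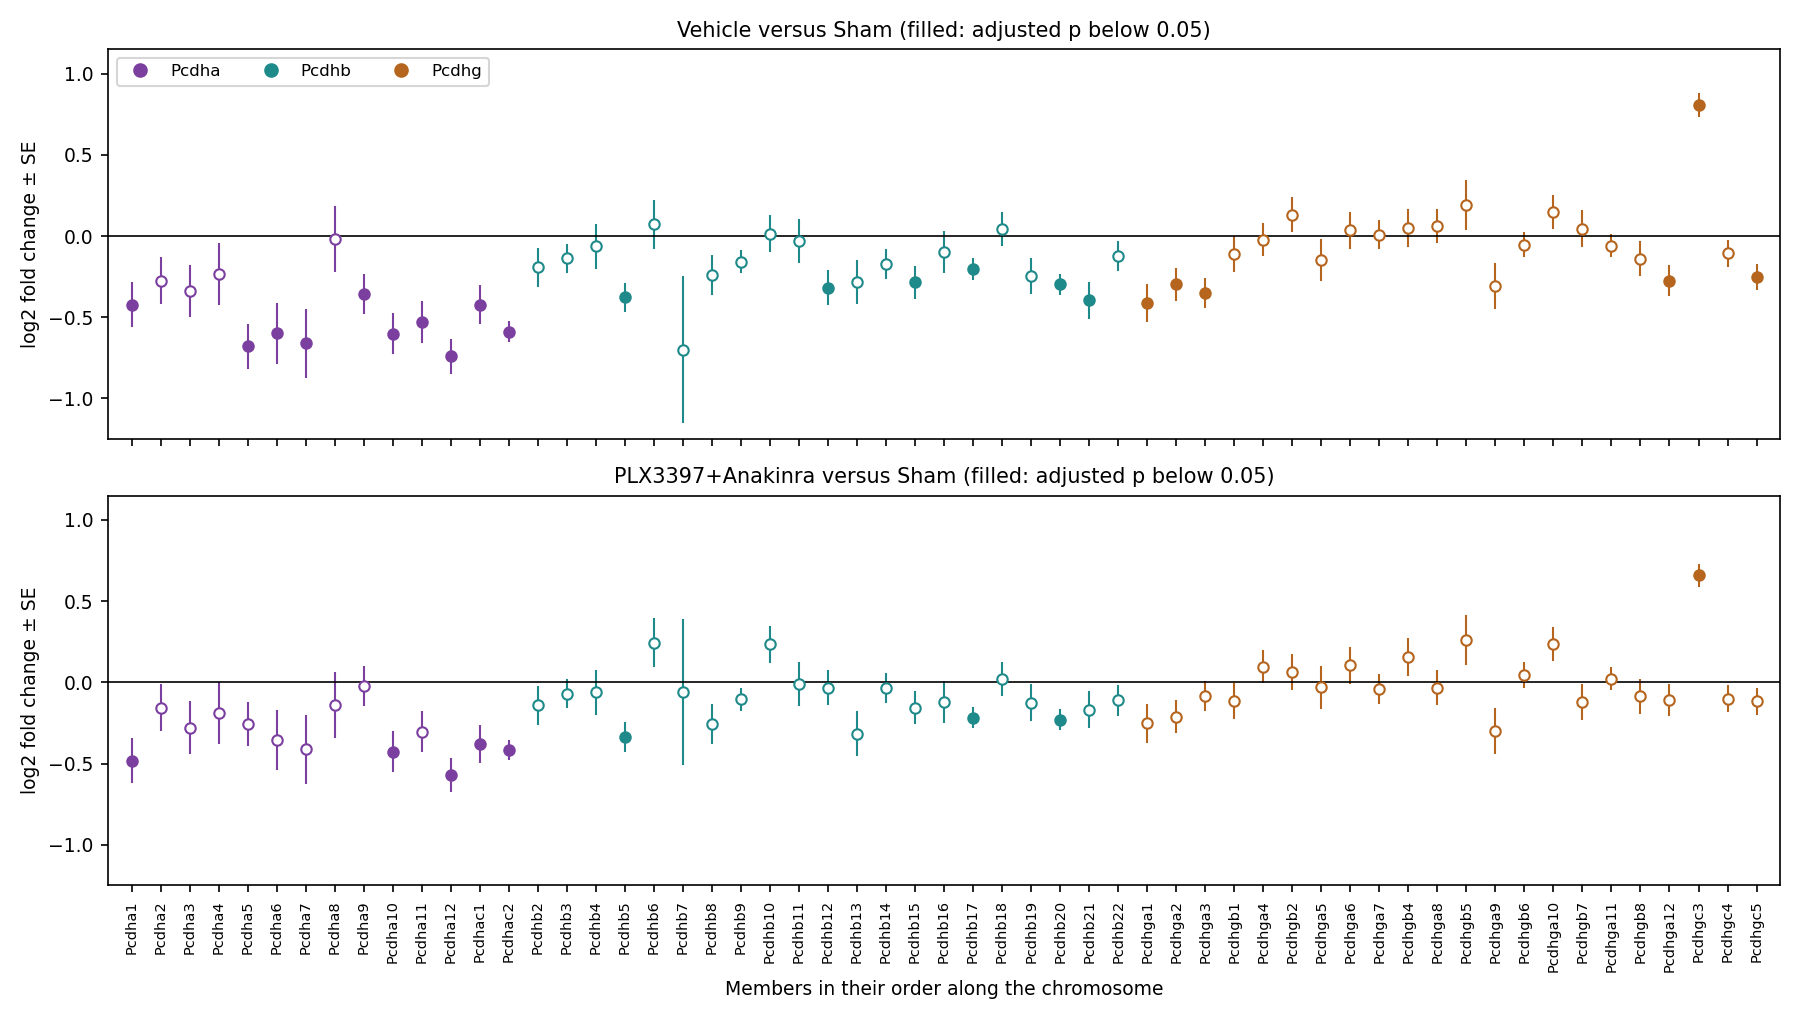
Log2 fold change with its SE for every member in chromosome order, for vehicle versus sham (top) and PLX3397+Anakinra versus sham (bottom), with filled points for an adjusted p under 0.05. Filled Pcdha points lie below 0 in both panels, and Pcdhgc3 is the only filled point above 0 (0.81 and 0.66).

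Pcdhac2, a C-type isoform known for its role in the spacing of serotonergic axons, had the smallest p-value of the Pcdha cluster. It measured 49.6, 50.3, 52.3 and 54.4 TPM in sham mice, 32.2, 32.6, 32.8, 35.4 and 37.2 in vehicle mice and 33.5, 34.6, 36.7, 36.9 and 37.8 with PLX3397. It measured 30.4, 30.7, 34.1, 35.7 and 36.3 TPM with Anakinra and 35.9, 36.2, 37.0, 38.9 and 44.4 with both drugs. Every injured library was below every sham library, and mouse J17 of the combination group was the highest of the injured mice. The log2 fold change relative to sham was -0.59 ± 0.06 (SE, adjusted p = 2.51e-08) in vehicle, -0.51 with PLX3397, -0.61 with Anakinra and -0.42 with both drugs, with limma adjusted p-values of 4.35e-07, 1.38e-08 and 1.15e-05 in the drug groups. Pcdhac1, the other C-type alpha isoform, fell by 0.42 on the log2 scale in vehicle mice (limma, adjusted p = 0.00388), and its call in the combination group (adjusted p = 0.0127) was lost without sham mouse J08.

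Pcdha12, the most abundant alternate alpha isoform, showed the lowest estimate of any member in vehicle mice. It was 16.3, 16.4, 18.1 and 19.1 TPM in sham mice and 7.44, 9.24, 10.5, 11.7 and 12.0 TPM in vehicle mice. The groups did not overlap, and the log2 fold change was -0.74 ± 0.11 (SE, adjusted p = 2.26e-06) by limma. It was -0.63 with PLX3397, -0.64 with Anakinra and -0.57 with both drugs, each called by limma. Pcdha5 was 7.12, 8.27, 8.30 and 8.92 TPM in sham and 3.43, 4.24, 4.60, 5.31 and 6.34 TPM in vehicle mice, again without overlap, with a log2 fold change of -0.68 ± 0.14 (SE, adjusted p = 1.90e-04) by limma. With both drugs Pcdha5 was 5.34, 6.35, 6.53, 6.97 and 8.32 TPM, which overlapped with sham and was not called against it (log2 fold change -0.26, limma adjusted p = 0.148). Pcdha9 fell in vehicle mice (-0.36, limma adjusted p = 0.0168), a call that was lost without vehicle mouse J20B or sham mouse J07 or J16. Pcdha1 fell as well (-0.42, limma adjusted p = 0.0117), and Pcdha8, the lowest member, had an estimate of -0.02 (adjusted p = 0.942).

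Across the 12 alternate alpha isoforms, the log2 fold change in vehicle mice had a Spearman correlation of -0.43 with position along the cluster and -0.48 with mean TPM. Over the 19 alternate gamma isoforms these were 0.28 and 0.01, and over the 21 Pcdhb genes -0.14 and -0.24. Neighbouring isoforms share libraries and, for alpha and gamma, exons, so these values are descriptions across genes.

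In the Pcdhb cluster, 3 genes were called lower than sham in all 4 injured groups: Pcdhb5, Pcdhb17 and Pcdhb20. All 4 comparisons share the sham mice, and the share of all genes tested called lower in all 4 is not given. Whether such genes are more frequent in this cluster than elsewhere cannot be read from this count. Pcdhb20 was 13.4, 13.4, 14.2 and 14.3 TPM in sham mice and 10.1, 10.8, 10.9, 11.2 and 12.4 TPM in vehicle mice, without overlap (log2 fold change -0.30 ± 0.07 (SE, adjusted p = 4.35e-04), limma). Pcdhb5 was 5.07, 5.53, 6.30 and 6.45 TPM in sham mice and 3.90, 4.14, 4.25, 4.37 and 4.57 TPM in vehicle mice, also without overlap (-0.38 ± 0.09 (SE, adjusted p = 0.00103), limma). These differences were smaller than those of the leading Pcdha genes. Pcdhb17, the most abundant member of its cluster, fell by 0.20 on the log2 scale (limma, adjusted p = 0.0113), and this call was lost without sham mouse J07. Pcdhb9 had an estimate of -0.16 in vehicle mice (adjusted p = 0.0587) and fell with Anakinra (-0.23, limma adjusted p = 0.00623). Pcdhb12 and Pcdhb21 fell in vehicle mice by 0.32 and 0.40 on the log2 scale (limma, adjusted p = 0.0137 and 0.00495), the former losing its call without vehicle mouse J18B or sham mouse J07. Pcdhb13, Pcdhb18 and Pcdhb6 were not called in vehicle mice, with estimates of -0.28, 0.05 and 0.07.

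The gamma cluster held the only member that rose in all 4 injured groups, Pcdhgc3, a C-type isoform that promotes dendrite arborization in cortical neurons and binds the Wnt pathway protein Axin1. It measured 75.8, 76.1, 78.5 and 84.4 TPM in sham mice and 122, 136, 139.9, 141 and 153 TPM in vehicle mice. It measured 109, 113, 129, 132 and 132 TPM with PLX3397, 107, 120.1, 121, 127 and 138 TPM with Anakinra and 116, 118, 125, 132 and 134 TPM with both drugs. Every injured library exceeded every sham library, while the 4 injured groups overlapped among themselves. The log2 fold change was 0.81 ± 0.07 (SE, adjusted p = 7.63e-10) in vehicle mice by limma, and 0.63, 0.63 and 0.66 with PLX3397, Anakinra and both drugs. Its share of the Pcdhg sum was 14.8% in sham, 25.2% in vehicle, 22.6% with PLX3397, 23.7% with Anakinra and 22.3% with both drugs.

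Pcdhgc5, a C-type isoform that binds GABA-A receptor subunits, moved the other way. It was 135, 142, 145 and 153 TPM in sham mice and 109, 118, 118, 125 and 134 TPM in vehicle mice, and the groups did not overlap (log2 fold change -0.25 ± 0.08 (SE, adjusted p = 0.0111), limma). It was also called lower with PLX3397 (-0.23, limma adjusted p = 0.0225) and with Anakinra (-0.21, adjusted p = 0.0282), but both calls were lost without sham mouse J07. Other single mice also ended them (J02, J19 or J20 of the PLX3397 group; J21 of the Anakinra group or sham mouse J16), and median-ratio scaling ended the Anakinra call. With both drugs the estimate was -0.12 (adjusted p = 0.269). Pcdhgc4, the isoform required for the survival of developing neurons, was called only with Anakinra (-0.25, limma adjusted p = 0.0127, lost without sham mouse J07), with an estimate of -0.11 in vehicle mice (adjusted p = 0.286).

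The ratio of Pcdhgc3 to Pcdhgc5 within a library separated sham from injury. It was 0.533, 0.540, 0.550 and 0.565 in sham mice and 1.01, 1.04, 1.12, 1.30 and 1.30 in vehicle mice. With PLX3397 it was 0.880, 0.954, 0.967, 1.01 and 1.23, with Anakinra 0.959, 0.970, 0.972, 0.983 and 1.07 and with both drugs 0.890, 0.900, 0.949, 0.970 and 1.00. The highest sham value was below the lowest injured value. For vehicle and Anakinra mice this followed from the genes themselves, since Pcdhgc3 lay above and Pcdhgc5 below sham, each without overlap. All vehicle mice also stood above all mice given both drugs, but narrowly. The lowest vehicle value was 1.01, and the highest with both drugs was 1.00. The ratio of Pcdhgc3 to Pcdhgc4 overlapped between these groups. The share of other gene ratios that separate them is not given. A ratio within a library shows unequal change only.

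**Figure D3:**
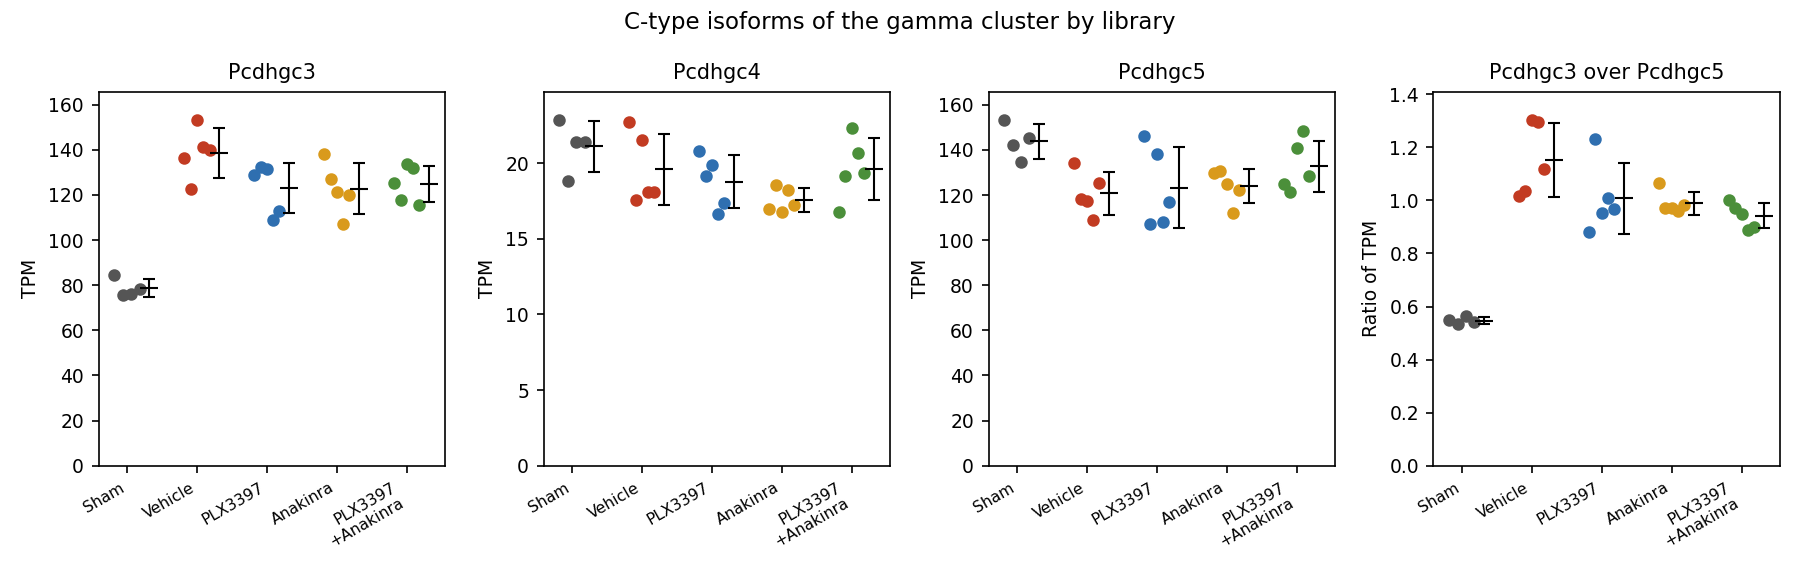
TPM of Pcdhgc3, Pcdhgc4 and Pcdhgc5 and the ratio of Pcdhgc3 to Pcdhgc5, with 1 point per library and the mean with its SD, in 4 sham mice and 5 mice per injured group. Pcdhgc3 lies at 107 TPM or more in every injured library and at 84.4 TPM or less in every sham library, and the highest sham ratio of 0.565 lies below all injured ratios.

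Of the 19 alternate gamma isoforms, 4 fell in vehicle mice, Pcdhga1, Pcdhga2, Pcdhga3 and Pcdhga12, and none rose, beside 27.7% of all genes tested that fell. Pcdhga3 was 18.6, 20.1, 20.9 and 23.5 TPM in sham mice and 14.7, 15.3, 15.4, 16.6 and 18.4 TPM in vehicle mice, without overlap (log2 fold change -0.35 ± 0.09 (SE, adjusted p = 0.00237), limma). Pcdhga1 fell by 0.41 (limma, adjusted p = 0.00477) and Pcdhga12 by 0.27 (adjusted p = 0.0191) on the log2 scale, the latter losing its call without vehicle mouse J17B or sham mouse J15. Pcdhga10 was higher than sham with PLX3397 (0.32, limma adjusted p = 0.015), a call lost without sham mouse J07, and had an estimate of 0.15 in vehicle mice. Pcdhga11, the most abundant alternate isoform, was not called in vehicle mice (-0.06, adjusted p = 0.493), nor was Pcdhgb7 (0.05, adjusted p = 0.75).

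Among injured mice, the drugs alone gave no called member. PLX3397 versus vehicle gave 0 of 57 by limma, where 9.89% of all genes tested were called, and 3 members had an unadjusted p under 0.05 (22.8% of all genes). The count was 2 without vehicle mouse J17B. Anakinra versus vehicle gave 0 (0.116% of all genes, and 5 members against 12.4% of all genes at an unadjusted p under 0.05), and the combination versus PLX3397 gave 0 (0.151%, and 2 members against 6.71% at an unadjusted p). The interaction of both drugs called no member and 0% of all genes tested, with 3 members against 8.08% of all genes at an unadjusted p under 0.05.

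The combination versus vehicle called 4 members, all higher, where 17.5% of all genes tested were called and 7.88% were called higher: Pcdha5, Pcdha9, Pcdhac2 and Pcdhga3. Pcdha5 had a log2 fold change of 0.42 ± 0.13 (SE, adjusted p = 0.0257) by limma, and its groups overlapped. Pcdhga3 was 17.6, 17.7, 18.99, 20.9 and 22.8 TPM with both drugs, against 14.7 to 18.4 TPM in vehicle mice, with a log2 fold change of 0.27 ± 0.09 (SE, adjusted p = 0.0339) by limma. Pcdha9 (0.33, limma adjusted p = 0.0476) and Pcdhac2 (0.17, adjusted p = 0.0495) lay at the threshold. No member of the 57 separated the groups without overlap in this comparison, against 6.62% of all genes tested that lay lower and 4.09% that lay higher. At an unadjusted p under 0.05 there were 8 members, against 29.7% of all genes. The count of 4 was 0 without vehicle mouse J18B or J19B, 1 without combination mouse J09 or J17, and 2 without vehicle mouse J01B or J20B or combination mouse J04 or J10. Vehicle mouse J17B and combination mouse J17 carry the same number and had the highest Pcdha sums of their groups (95.3 and 104.8 TPM), and without J17B the count was 6. Pcdhgc3 had an estimate of -0.15 (limma, adjusted p = 0.135), and Pcdhb12 lay just outside the threshold (0.28, adjusted p = 0.0503).

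The combination versus Anakinra called Pcdha5 (0.42, limma adjusted p = 0.032) and Pcdhac2 (0.20, adjusted p = 0.0307), both higher, where 12.8% of all genes tested were called and 4.67% were called higher. At an unadjusted p under 0.05 there were 11 members, against 27.9% of all genes. The estimate was above 0 for 53 of the 57 members and for 10390 of the 17267 genes tested. The count was 0 without Anakinra mouse J21 or combination mouse J17, 1 without combination mouse J09, 4 without Anakinra mouse J22 or combination mouse J03 or J04, and 7 without Anakinra mouse J14. Over all 5 groups at once, limma's F-test called 18 members, 8 Pcdha, 5 Pcdhb and 5 Pcdhg, against 51.9% of all genes tested.

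Pcdhb7, described after its values were seen, varied more among mice of 1 group than any other member. Its SD within groups was 0.75 on the log2(TPM + 1) scale, and the next, Pcdha7, had 0.34. Its values were 1.63, 6.37, 6.57 and 7.58 TPM in sham mice and 1.41, 1.45, 3.49, 3.90 and 4.09 TPM in vehicle mice. They were 1.89, 1.92, 7.32, 7.46 and 8.52 TPM with PLX3397, 1.86, 4.07, 6.98, 7.09 and 7.41 TPM with Anakinra and 1.80, 2.34, 6.10, 7.86 and 9.32 TPM with both drugs. Over all 24 mice they fell into 3 ranges, 8 libraries between 1.41 and 2.34 TPM, 4 between 3.49 and 4.09 and 12 between 6.10 and 9.32. The low range held mice of all 5 groups. The high range held 3 mice of each group except vehicle, which had none. Pcdhb7 was not called in any comparison (vehicle versus sham -0.70, limma adjusted p = 0.197). Of 3336 tested genes with a mean within 2 times that of Pcdhb7, 23 had a larger SD within groups.

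**Figure D4:**
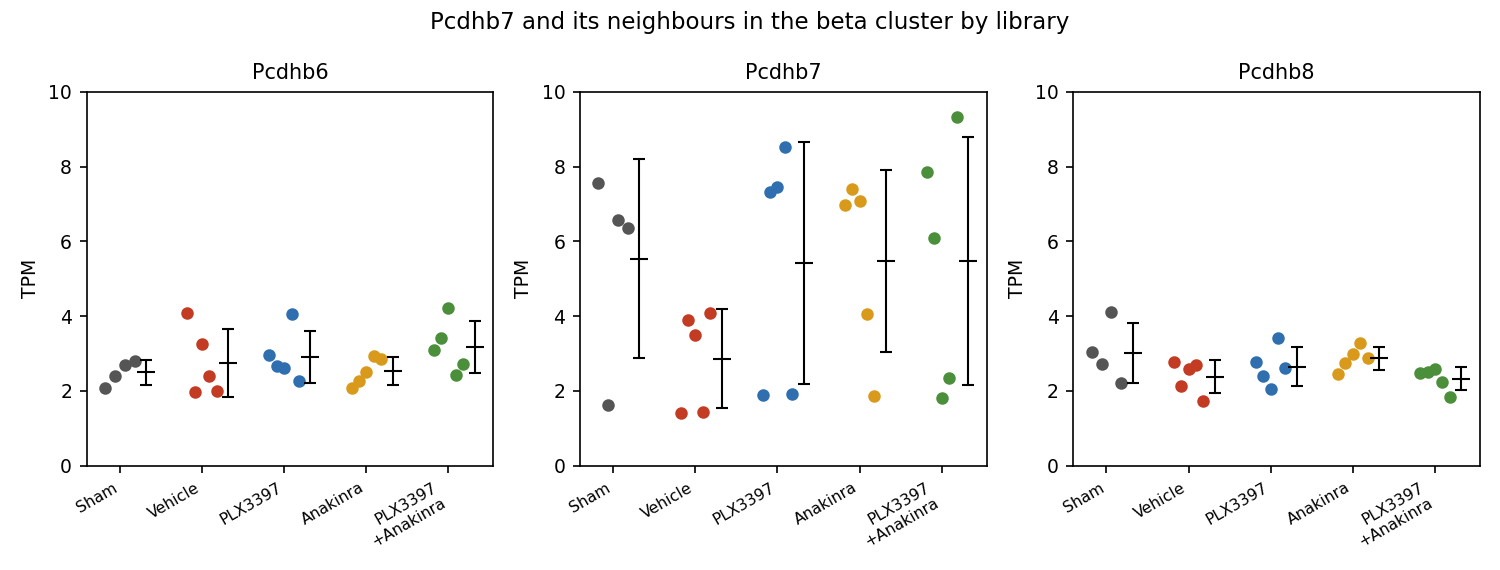
TPM of Pcdhb7 and of its neighbours Pcdhb6 and Pcdhb8, on the same scale, with 1 point per library and the mean with its SD, in 4 sham mice and 5 mice per injured group. Pcdhb7 alone shows separated ranges within groups, with no value between 2.34 and 3.49 or between 4.09 and 6.10 TPM.

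Other genes of the same biology were examined as lists. Of 12 protocadherins outside the clusters, 5 fell and 1 rose in vehicle mice, beside 27.7% and 26.6% of all genes tested (median log2 fold change -0.19, against -0.01 over all genes tested). Pcdh7 (-0.48, limma adjusted p = 1.61e-07), Pcdh9 (-0.34), Pcdh8 (-0.41) and Pcdh20 (-0.42) were among those that fell. The gene that rose was Pcdh12 (0.40, limma adjusted p = 0.00397), which is expressed by endothelium.

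Of 18 chromatin regulators of the clusters, 5 rose and 2 fell in vehicle mice, beside 26.6% and 27.7% of all genes tested. The cohesin loader Nipbl (0.23, limma adjusted p = 0.00234), the cohesin subunit Stag2 (0.23) and the cohesin release factor Wapl (0.16) were among those that rose. With PLX3397, 0 rose and 6 fell relative to sham (22.7% and 22.5% of all genes tested). With Anakinra 1 rose and 3 fell (25.1% and 29.2%), and with both drugs 0 rose and 2 fell (20.7% and 18.1%). Ctcf, whose product anchors the promoter loops, had an estimate of -0.11 in vehicle mice (adjusted p = 0.0543) and fell with PLX3397 (-0.20), Anakinra (-0.18) and both drugs (-0.17). Of 22 binding partners and processing enzymes, 7 rose and 9 fell in vehicle mice, beside the same shares of all genes. The sheddase gene Adam10 rose by 0.50 and the WAVE complex gene Cyfip1 by 0.74 on the log2 scale. Both were lower with the combination than with vehicle (-0.28 and -0.33, limma adjusted p = 5.42e-05 and 2.12e-05). In that comparison 2 of the 22 genes were higher and 4 lower, where 17.5% of all genes tested were called.

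Neuronal markers and the Pcdha sum were both lower than sham in all 4 injured groups. The summed level of 20 neuronal markers was 13537 to 13978 TPM in sham mice, 8232 to 9833 in vehicle, 9425 to 11310 with PLX3397, 8692 to 9744 with Anakinra and 10149 to 10796 with both drugs. Its ratio to sham was 0.648, 0.729, 0.665 and 0.76 in these groups, and the corresponding ratios of the Pcdha sum were 0.657, 0.72, 0.651 and 0.754. Those of the Pcdhb sum were 0.846, 0.892, 0.831 and 0.913, and those of the Pcdhg sum 1.04, 1.02, 0.978 and 1.06. In all 4 groups 19 of the 20 markers fell. With both drugs 13 of 20 were higher than in vehicle mice, and the groups did not overlap in the sum.

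Astrocyte markers (12 genes) summed to 4042 to 4466 TPM in sham mice, 6651 to 7951 in vehicle, 6664 to 7398 with PLX3397, 6400 to 6974 with Anakinra and 6836 to 7251 with both drugs. In vehicle mice the 8 markers of oligodendrocyte progenitors all rose, 7 of 10 oligodendrocyte markers rose, and microglial markers summed to 6.37 times the sham level. With both drugs all 12 microglial markers were lower than in vehicle mice. Other lists were also lower in vehicle mice than in sham mice without overlap of their sums, with ratios of 0.717 for inhibitory interneurons (8 of 10 markers fell), 0.766 for thalamus (3 of 6) and 0.802 for dentate gyrus (4 of 6). The striatal markers overlapped, and 0 of 8 were called by limma (0 at an unadjusted p under 0.05). None of the neuronal, astrocyte or microglial markers was at 0 in any library. The part of these cell types in the protocadherin results was not tested.

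**Figure D5:**
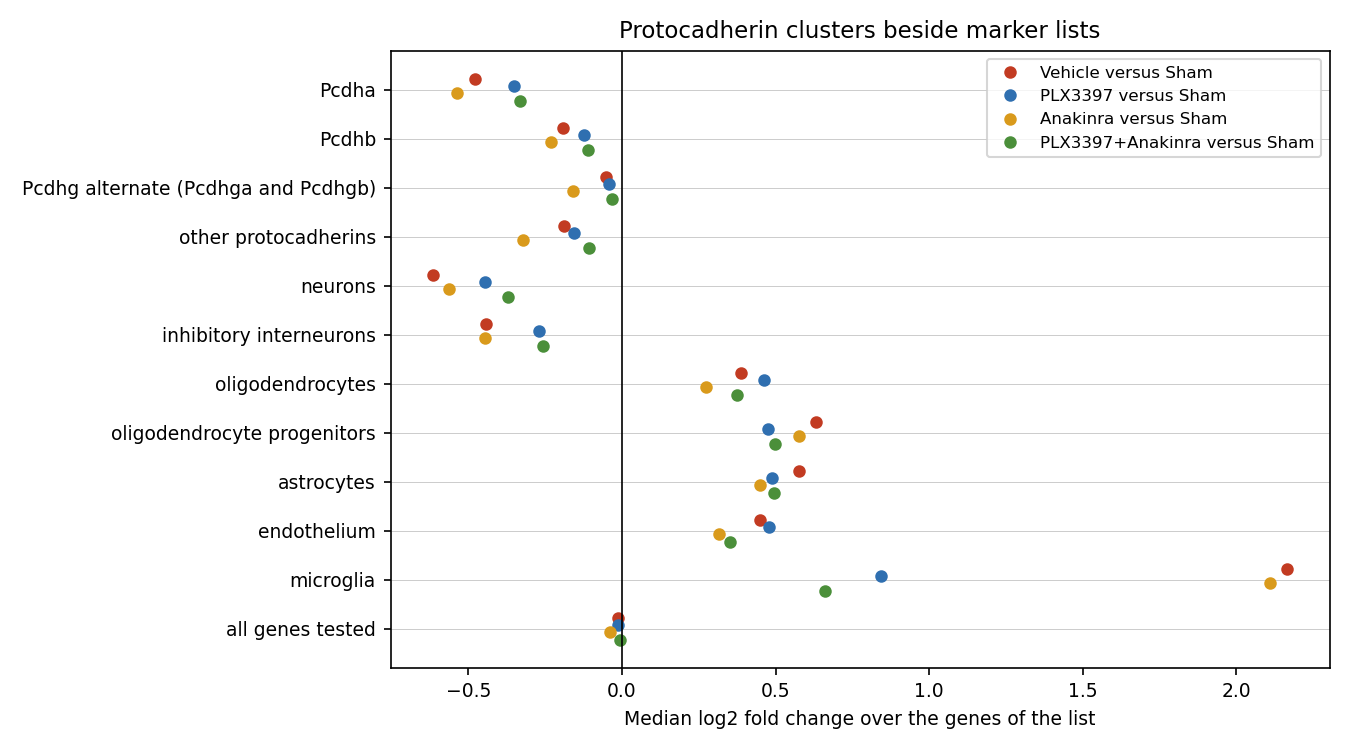
Median log2 fold change relative to sham over the genes of each list, for the 4 injured groups (colored points). Pcdha, Pcdhb and the alternate Pcdhg isoforms are above, and the other protocadherins, marker lists and all genes tested below. The C-type isoforms are included for Pcdha but left out for Pcdhg. Pcdha lies between -0.54 and -0.33 and the neuronal markers between -0.61 and -0.37, whereas all genes tested lie near 0.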

How the data were processed

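Total RNA of lesional and perilesional tissue was poly(A)-enriched and sequenced as paired ends, 1 library per mouse. The authors mapped the reads in CLC Genomics Workbench, with GRCm38 named as the build in the labels, and deposited gene levels as TPM, which sum to 1000000 per library. TPM keeps no depth, so precision rests on the spread between mice. The deposited table with test columns of the authors was not used.

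Members and gene lists were chosen with earlier results of these data known. Samples were grouped by the treatment label. The 17267 genes averaging 0.5 TPM or more were fitted on log2(TPM + 1) with limma 3.58.1 (R 4.3.3, trended variance) over all 24 libraries with 1 mean per group, and p-values were adjusted by Benjamini-Hochberg over all genes tested. An adjusted p under 0.05 was called. A pseudocount of 1 understates changes of low genes. The fit was tested on simulated data. Coordinates came from RefSeq and exon overlaps from GENCODE. Named members were the C-type isoforms, the 3 most abundant genes of each cluster, those with the smallest p-values per cluster and direction in vehicle versus sham and combination versus vehicle, and members called between injured groups. Of the other lists, up to 4 called genes per list were named. Genes named outside this rule (Pcdhb7, Pcdhga2, Pcdh12 and Ctcf) were chosen after their values were seen. The animal numbers J01, J19 and J20 occur in both the vehicle and PLX3397 groups, but correlations of their deviations were 0.17, -0.13 and -0.07, so samples were not paired. The number J17 occurs in the vehicle and combination groups (correlation 0.32), and 1 shared number allows no block. The values of 1 gene of the other lists are not reported here.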

Additional observations from a re-analysis of the deposited data

Results flagged for a closer look

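In 140 groups of 4 or 5 values examined, over the cluster sums and the named members, 3 held a library far from the others. The rule used was set at a level of about 1 in 20 groups, a rate that was not computed from these data. The Pcdhb sum of sham mouse J08 was 125.4 TPM, while the other sham mice lay between 141.6 and 142.1 TPM. Pcdhb5 in Anakinra mouse J05 was 4.94 TPM, while the others of its group lay between 3.93 and 4.21 TPM. Pcdhga12 in mouse J09 of the combination group was 28.7 TPM, while the others of its group lay between 21.2 and 22.4 TPM.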

How the results depend on the processing

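The counts of members called kept within 1.5 times their value in 178 of 215 alternative fits. Comparisons with 0 calls in the main fit counted as kept whenever they again gave 0. One of the alternatives used a second deposited copy of the TPM values. It differed by at most 0.000761 TPM, so its result was set in advance, here and for the cluster sums. The 178 is therefore no measure of how stable the nonzero counts are. With a mean of at least 5 TPM the counts against sham were 13 (vehicle), 10 (PLX3397), 19 (Anakinra) and 5 (combination). This limit removed members from the count. Among them were Pcdha10 (mean 4.17 TPM) and Pcdhb5 (4.59 TPM), each called lower in all 4 injured groups in the main fit. These counts are thus out of fewer members, and the share of all genes called at this limit is not given. Whether the share of members called fell cannot be read from them. With the fold limit of 2 and difference limit of 4 TPM of the study, 0 members remained in any comparison with sham, in combination versus vehicle or in combination versus Anakinra. A member at 4 TPM or less in sham mice cannot fall by more than 4 TPM, so for falls of such members this outcome was set in advance. At an unadjusted p the counts were 16 (combination versus sham), 3 (PLX3397 versus vehicle), 5 (Anakinra versus vehicle), 8 (combination versus vehicle), 2 (combination versus PLX3397), 11 (combination versus Anakinra) and 3 (interaction). Without the filter on low values the combination gave 0 calls versus vehicle and 1 versus Anakinra, and with only the groups compared it gave 1 versus vehicle; the cause was not tested. Leaving out 1 mouse gave 18 to 25 calls for vehicle, 10 to 18 for PLX3397, 21 to 30 for Anakinra and 8 to 11 for the combination versus sham. Each was lowest without sham mouse J07. Between injured groups, leaving out 1 mouse gave 0 to 2 for PLX3397 versus vehicle, 0 to 6 for combination versus vehicle and 0 to 7 for combination versus Anakinra. The share of all genes tested that was called in these fits is not given. The animal number as a replicate block gave 0 calls for PLX3397 versus vehicle. The cluster sums kept within 1 SD in 380 of 384 alternatives. The others came from leaving out Pcdhgc3, an alternative chosen after seeing the data, which turned the log2 ratio of the Pcdhg sum to sham to -0.13 (vehicle), -0.10 (PLX3397) and -0.049 (combination) and moved it to -0.19 (Anakinra), by construction. Leaving out Pcdhb7, also chosen after seeing the data, moved no Pcdhb ratio by more than 1 SD. The Pcdhb sum of sham mouse J08 was then 123.7 TPM, and the other sham mice lay between 134.1 and 135.7 TPM. Vehicle mice, with a highest value of 123.1 TPM, then no longer overlapped with sham. Of the log2 fold changes of 25 named members, 77 lost and 26 gained a call under an alternative, and 2497 did neither. No called value changed sign, but 164 values that were called in neither setting did.

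With 4 or 5 mice per group and unknown depth, precision rests on the spread between mice. TPM is relative within a library, and shared exons limit what single alpha and gamma isoforms show.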
